A study of Danio rerio with 20 samples.

Results

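Circadian clock genes were examined in cardiomyocytes isolated from adult zebrafish hearts, as a check of clock state across the sampled groups. The set holds 10 genes chosen by symbol: the activators arntl1a and clocka, the period genes per1a, per1b, per2 and per3, the nuclear receptor genes nr1d1 and nr1d2b, and the output factor genes tefa and dbpa. All 10 were among the 14781 gene symbols of the deposited matrix, and all 10 passed the filter on low values that left 10914 genes for testing. RNA was sequenced in 20 libraries of 10 groups, 2 libraries per group, each library from the cardiomyocytes of 8 pooled ventricles of fish aged 4 to 6 months. The groups were kit mutants with the genotype kita(w34b2);kitb(sa15356) and wild-type fish, each sampled without surgery (untouched) or 2, 5, 7 or 14 days post injury (dpi), the injury being removal of some 20% of the apex of the ventricle. The mutants carry alleles of both zebrafish copies of kit, a receptor tyrosine kinase gene. Untouched hearts, not hearts of sham-operated fish, were the baseline. The hour of collection and the light schedule are not given in the labels used here, so a difference between groups in clock phase and a difference in clock gene expression at a given phase cannot be told apart.

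The vertebrate clock is a feedback loop of transcription. CLOCK and BMAL proteins (BMAL is encoded by arntl genes) bind E-box elements as a pair and switch on the period, cryptochrome and nr1d genes; period and cryptochrome proteins return to the nucleus and inhibit that pair, while NR1D proteins repress the arntl genes and ROR proteins activate them. The PAR bZIP factors encoded by tef, dbp and hlf genes carry the rhythm to output genes through D-box elements, and NFIL3 proteins compete for the same elements. In zebrafish, cells of many tissues, the heart included, hold clocks that light can set directly, and per2 is a gene that light induces.

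Levels are given as scaled CPM, which is counts per 1000000 assigned reads divided by a library factor of 0.881 to 1.18. Differences are given as log2 of scaled CPM + 1, ± SE, from 1 limma-trend fit over all 20 libraries, and a gene is called where its Benjamini-Hochberg adjusted p over the 10914 genes is under 0.05. Libraries held 14.6 to 31.7 M assigned reads. The labels do not say that libraries of a group came from separate preparations, so each p measures the spread between libraries. In the kit mutant groups untouched, 2 dpi and 7 dpi the 2 libraries were nearly identical, with a mean chi-square per gene of 1.95 to 3.73, against 13.9 to 46.6 in the other 7 groups, where sampling of reads alone gives about 1. Results are therefore also given with those 3 pairs averaged where that ends a call. The kit mutant 2 dpi pair alone carries lane 7 in its labels, the other 18 libraries lane 8. In 4 cases the same sample sheet number and lane occur in both genotypes, so these were not 1 lane of 1 run. The labels used here name no run. Whether sequencing run followed genotype is therefore not known, and an effect of run could not be set apart from genotype. The targeted genes had 6 to 29 reads (kita) and 0 to 8 reads (kitb) per library, too few to check the genotype labels.

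The libraries carried cardiomyocyte markers throughout, with a summed level of 46800 to 89800 CPM over 9 markers. They were low at 2 dpi, 46800 to 47700 CPM against 85600 to 88100 CPM untouched in kit mutants, and 53700 to 67500 against 86800 to 89800 CPM in wild type. Markers of other cells were also present and moved with injury. The 9 epicardial and fibroblast markers summed to 1230 to 1260 CPM in untouched kit mutants and 2370 to 2440 CPM in untouched wild type, and to 5810 to 12900 CPM in all injured groups. The 8 macrophage markers ranged from 221 to 1730 CPM, and the 8 neutrophil markers from 23.6 to 683 CPM with the highest values in untouched kit mutants. Erythrocyte markers summed to 1450 CPM in one wild-type 2 dpi library and 7620 CPM in the other. The part of these cells in the clock gene values was not tested. In such bulk RNA, fewer cells of a type and less RNA per cell cannot be told apart.

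per2 and per3 were each called in 11 of 17 comparisons, per1b and nr1d1 in 10, and per1a in 5. These comparisons share groups. The share of all tested genes called ran from 14.6% (kit mutant 7 dpi against untouched) to 57.7% (kit mutant against wild type at 2 dpi). In wild-type hearts 7 of the 10 clock genes were lower at 2 dpi than untouched, beside 25.2% of all tested genes called lower, with per2 lower by 2.28-fold and per3 by 2.06-fold. In kit mutants no period gene fell at 2 dpi, and per2 and per3 stood 2.61-fold and 3.39-fold above wild type at that time. At 14 dpi all 4 period genes were higher in kit mutants than in untouched kit mutants, and all 4 were above wild type. The activator genes arntl1a and clocka rested on few reads and were called in 2 (arntl1a) and 4 (clocka) of the 17 comparisons.

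**Figure D1:**
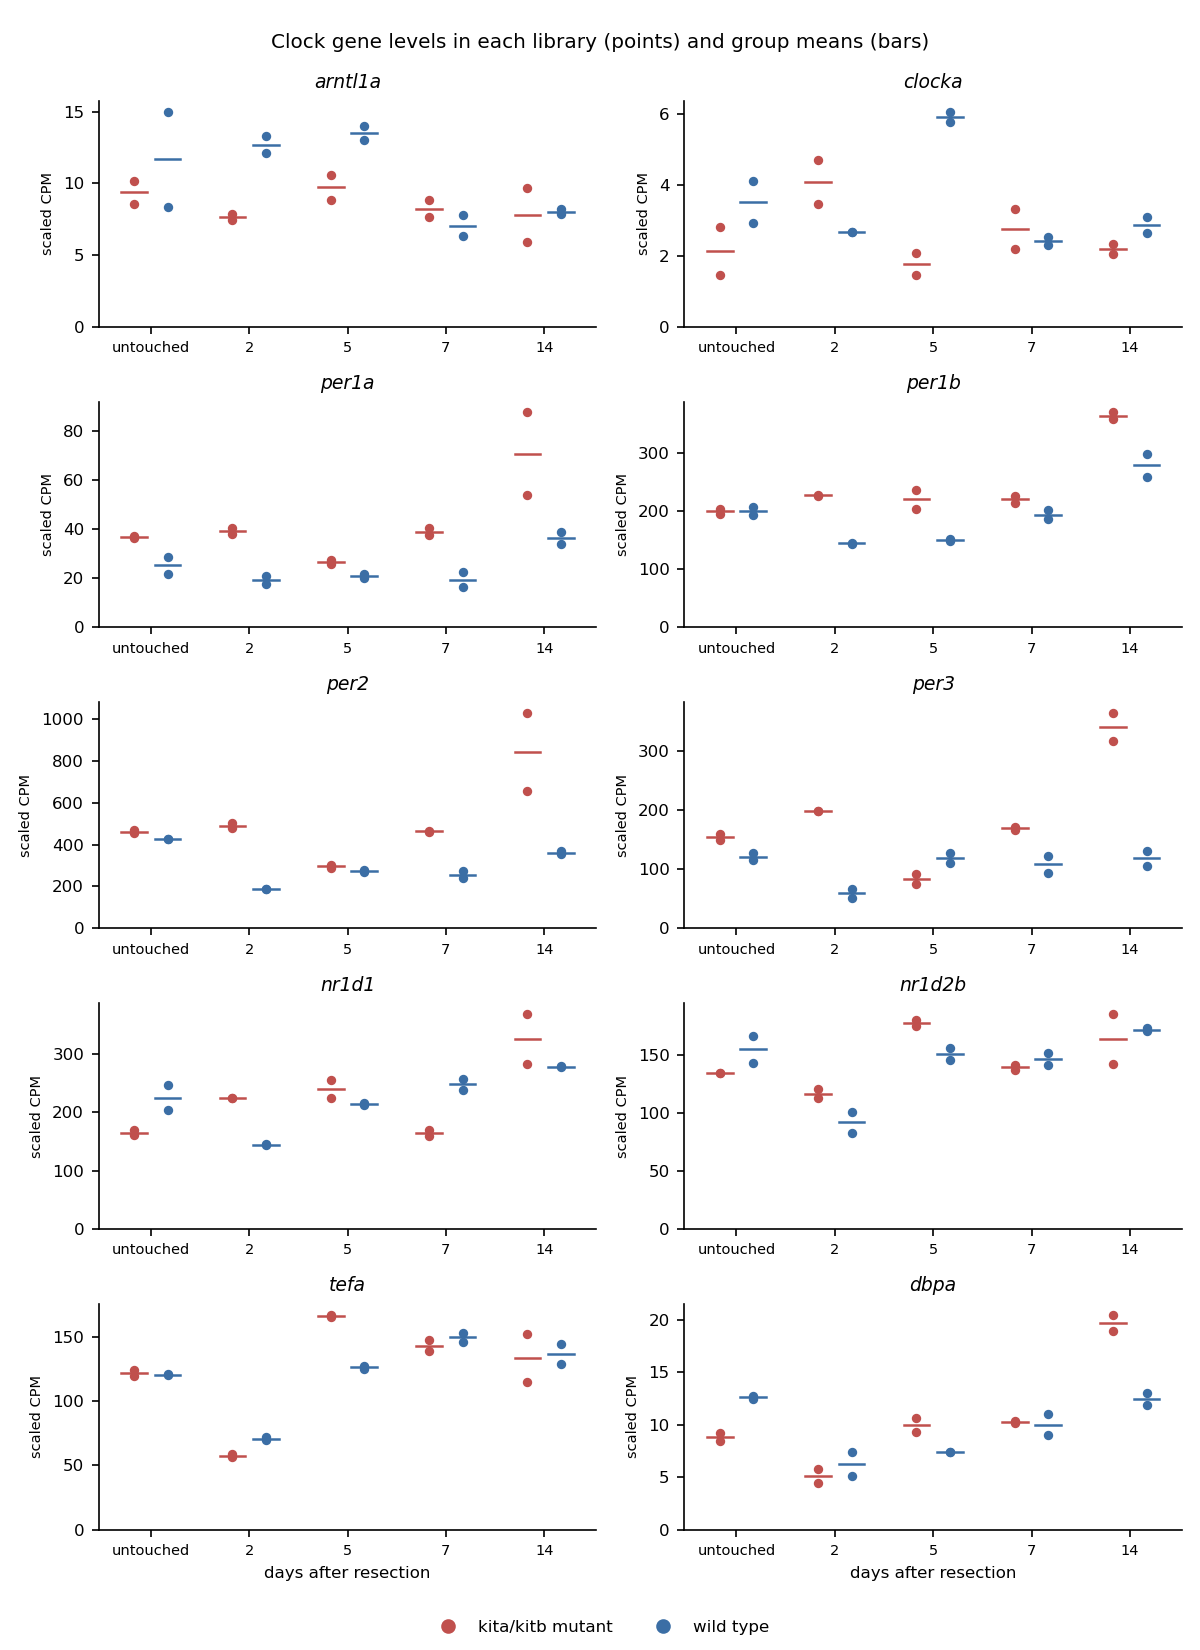
Scaled CPM of the 10 clock genes (y axes, from 0, each gene on its own scale) in each library by days after resection (x axes), kit mutant in red and wild type in blue; points are libraries and bars are means of the 2 libraries of a group. The wild-type 2 dpi points of per2 (188 and 188) and per3 (66.1 and 51.3) lie lowest of their panels, and the kit mutant 14 dpi points (1030 and 656 for per2, 364 and 317 for per3) lie highest.

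The activator arntl1a encodes a BMAL protein. In kit mutants arntl1a had 10.2 and 8.55 scaled CPM untouched, 7.83 and 7.42 at 2 dpi, 8.86 and 10.6 at 5 dpi, 8.82 and 7.63 at 7 dpi, and 5.88 and 9.67 at 14 dpi. In wild type it had 15.0 and 8.38 untouched, 13.3 and 12.1 at 2 dpi, 14.0 and 13.0 at 5 dpi, 6.30 and 7.76 at 7 dpi, and 8.19 and 7.87 at 14 dpi. The 2 untouched wild-type libraries were far apart, and the group means of wild type at 2 and 5 dpi were the highest. When the 10 groups were ordered by mean level, all 9 pairs of neighbours overlapped. The range of arntl1a over group means was 0.86 on the log2 scale, at percentile 26.2 of all tested genes, and it rested on 106 to 330 reads per library.

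Its partner clocka had the fewest reads of the set, 23 to 171 per library. In kit mutants clocka had 1.47 and 2.81 scaled CPM untouched, 4.71 and 3.47 at 2 dpi, 1.46 and 2.08 at 5 dpi, 3.32 and 2.18 at 7 dpi, and 2.05 and 2.32 at 14 dpi. In wild type it had 4.12 and 2.93 untouched, 2.66 and 2.67 at 2 dpi, 5.77 and 6.06 at 5 dpi, 2.54 and 2.31 at 7 dpi, and 3.10 and 2.64 at 14 dpi. The wild-type 5 dpi pair stood above every other library. Of the 9 neighbouring pairs of groups, 7 overlapped.

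The period genes encode the proteins that inhibit the CLOCK and BMAL pair. In kit mutants per1a had 36.5 and 37.2 scaled CPM untouched, 38.0 and 40.4 at 2 dpi, 27.3 and 26.0 at 5 dpi, 40.3 and 37.6 at 7 dpi, and 53.7 and 87.5 at 14 dpi. In wild type per1a had 28.6 and 21.9 untouched, 17.8 and 21.1 at 2 dpi, 21.7 and 20.2 at 5 dpi, 22.5 and 16.4 at 7 dpi, and 38.8 and 34.1 at 14 dpi. Both genotypes had their highest per1a level at 14 dpi, and the 2 kit mutant libraries of that time differed widely.

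Its paralogue per1b varied less. In kit mutants per1b had 196 and 204 scaled CPM untouched, 228 and 227 at 2 dpi, 204 and 237 at 5 dpi, 215 and 227 at 7 dpi, and 358 and 370 at 14 dpi. In wild type per1b had 193 and 207 untouched, 144 and 145 at 2 dpi, 149 and 152 at 5 dpi, 186 and 202 at 7 dpi, and 299 and 259 at 14 dpi. The 14 dpi pairs were the highest of both genotypes, and the 2 and 5 dpi pairs were the lowest of wild type. Among the groups ordered by mean, 5 of 9 neighbouring pairs overlapped, kit mutant and wild type untouched among them.

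The light-induced period gene per2 was more variable. In kit mutants per2 had 455 and 469 scaled CPM untouched, 503 and 478 at 2 dpi, 288 and 304 at 5 dpi, 463 and 466 at 7 dpi, and 1030 and 656 at 14 dpi. In wild type per2 had 428 and 429 untouched, 188 and 188 at 2 dpi, 268 and 277 at 5 dpi, 239 and 272 at 7 dpi, and 370 and 353 at 14 dpi. Every injured wild-type pair lay below the untouched pair, while in kit mutants only the 5 dpi pair lay below and the 7 dpi pair overlapped it. The groups were the best separated of the set, with 2 of 9 neighbouring pairs overlapping.

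The period gene per3 had the widest range of the 10, 2.52 on the log2 scale over group means, at percentile 94.4 of all tested genes. In kit mutants per3 had 159 and 149 scaled CPM untouched, 199 and 199 at 2 dpi, 74.0 and 91.0 at 5 dpi, 171 and 167 at 7 dpi, and 364 and 317 at 14 dpi. In wild type per3 had 127 and 115 untouched, 66.1 and 51.3 at 2 dpi, 110 and 128 at 5 dpi, 94.0 and 122 at 7 dpi, and 131 and 106 at 14 dpi. The wild-type trough was at 2 dpi and the kit mutant trough at 5 dpi, and 3 of 9 neighbouring pairs overlapped.

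The nuclear receptor genes encode repressors of arntl genes. In kit mutants nr1d1 had 169 and 161 scaled CPM untouched, 224 and 224 at 2 dpi, 224 and 255 at 5 dpi, 159 and 169 at 7 dpi, and 283 and 369 at 14 dpi. In wild type nr1d1 had 204 and 247 untouched, 144 and 145 at 2 dpi, 212 and 216 at 5 dpi, 258 and 238 at 7 dpi, and 278 and 279 at 14 dpi. The wild-type 2 dpi pair was the lowest of all groups and the kit mutant 14 dpi pair the highest, with 4 of 9 neighbouring pairs overlapping.

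The other receptor gene, nr1d2b, had a narrow range of 0.95 on the log2 scale. In kit mutants nr1d2b had 134 and 134 scaled CPM untouched, 113 and 120 at 2 dpi, 180 and 175 at 5 dpi, 137 and 141 at 7 dpi, and 142 and 185 at 14 dpi. In wild type nr1d2b had 166 and 143 untouched, 101 and 82.2 at 2 dpi, 156 and 145 at 5 dpi, 141 and 151 at 7 dpi, and 173 and 170 at 14 dpi. Its lowest level was at 2 dpi in both genotypes. Of neighbouring pairs of groups, 5 of 9 overlapped.

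The PAR bZIP genes drive D-box outputs. In kit mutants tefa had 124 and 119 scaled CPM untouched, 58.5 and 56.3 at 2 dpi, 167 and 165 at 5 dpi, 147 and 139 at 7 dpi, and 115 and 152 at 14 dpi. In wild type tefa had 121 and 120 untouched, 71.6 and 69.8 at 2 dpi, 125 and 127 at 5 dpi, 146 and 153 at 7 dpi, and 144 and 129 at 14 dpi. The trough at 2 dpi was common to both genotypes, and 5 of 9 neighbouring pairs overlapped.

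The second output gene, dbpa, rested on 114 to 372 reads per library. In kit mutants dbpa had 9.19 and 8.48 scaled CPM untouched, 5.76 and 4.45 at 2 dpi, 10.6 and 9.28 at 5 dpi, 10.4 and 10.2 at 7 dpi, and 18.9 and 20.5 at 14 dpi. In wild type dbpa had 12.5 and 12.7 untouched, 5.07 and 7.41 at 2 dpi, 7.44 and 7.37 at 5 dpi, 9.04 and 11 at 7 dpi, and 13.0 and 11.9 at 14 dpi. It too was lowest at 2 dpi in both genotypes, and highest in kit mutants at 14 dpi, with 5 of 9 neighbouring pairs overlapping. The median range over group means was 1.42 on the log2 scale for the 10 clock genes and 1.15 for all tested genes.

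Within kit mutants, each injured time set against untouched hearts asks how clock transcripts stood after injury in fish with both mutant alleles. The 4 comparisons share the untouched pair. At 2 dpi 5 of 10 clock genes were called, beside 52.4% of all tested genes, and their directions were mixed. The output genes fell, tefa to a mean of 57.4 scaled CPM at 2 dpi against 121 untouched (log2 -1.06 ± 0.11, adjusted p = 4.2e-07) and dbpa to 5.11 against 8.83 (log2 -0.69 ± 0.16, adjusted p = 0.0013). The repressor gene nr1d1 rose (log2 0.44 ± 0.12, adjusted p = 0.0046), as did clocka (0.72 ± 0.22, adjusted p = 0.01) and per3 (0.37 ± 0.15, adjusted p = 0.048). With the near-identical pairs averaged the calls of nr1d1, clocka and per3 were lost (adjusted p = 0.11, 0.051 and 0.29). The per3 call was also lost without any 1 of 10 libraries (both of kit mutant untouched, 2 dpi and 7 dpi and of wild type untouched and 5 dpi; adjusted p 0.051 to 0.19), and that of clocka without replicate 1 of kit mutant untouched or 2 dpi (log2 0.41 to 0.54), where 3 calls were left. On CPM as deposited, where the median of all tested genes was 0.30 higher, 5 were higher and 2 lower, with per3 at 0.72, nr1d1 at 0.79 and dbpa at -0.39. The cardiomyocyte markers summed to 46800 to 47700 CPM at 2 dpi against 85600 to 88100 CPM untouched.

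At 5 dpi 5 of 10 clock genes were called in kit mutants, beside 51.3% of all tested genes. Among period genes per3 fell to 82.5 scaled CPM at 5 dpi against 154 untouched (log2 -0.90 ± 0.15, adjusted p = 0.00011) and per2 to 296 against 462 (-0.64 ± 0.14, adjusted p = 0.0014). The per1 genes were not called, per1a at -0.45 (adjusted p = 0.052) and per1b at 0.14 (adjusted p = 0.23). Both nuclear receptor genes rose, nr1d1 by 1.45-fold (adjusted p = 0.0013) and nr1d2b by 1.32-fold (adjusted p = 0.01), and tefa rose by 1.37-fold (adjusted p = 0.0021). The nr1d2b call was lost when kit mutant 5 dpi replicate 1 was left out (log2 0.38, adjusted p = 0.059), with the near-identical pairs averaged (0.089) and on unscaled CPM (0.053), where 2 clock genes were higher and 2 lower.

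At 7 dpi 0 of 10 clock genes were called in kit mutants by limma, beside 14.6% of all tested genes. The edgeR quasi-likelihood test also called 0, and 1 clock gene, tefa, had an unadjusted p under 0.05 (log2 0.24 ± 0.11, adjusted p = 0.16). The log2 differences ran between -0.17 for arntl1a and 0.27 for clocka. Leaving out either kit mutant 14 dpi library gave 1 call.

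At 14 dpi 6 of 10 were higher in kit mutants than untouched and 0 were lower, beside 39.4% of all tested genes called and 21.3% called higher. All 4 period genes were among them. per3 had 341 scaled CPM at 14 dpi against 154 untouched (log2 1.14 ± 0.15, adjusted p = 2.6e-05). per1b had 364 against 200 (0.86 ± 0.09, adjusted p = 4.7e-06), per2 845 against 462 (0.83 ± 0.14, adjusted p = 0.00029) and per1a 70.6 against 36.9 (0.88 ± 0.19, adjusted p = 0.0016). The repressor gene nr1d1 rose by 1.97-fold (log2 0.97 ± 0.12, adjusted p = 1.2e-05) and the output gene dbpa by 2.23-fold (1.08 ± 0.16, adjusted p = 6.6e-05). These 6 calls held under every setting tried and without any 1 library. The 2 libraries of this time stood apart for per2, whose difference was 0.50 without 14 dpi replicate 1, and for per1a, 0.53 without 14 dpi replicate 2. Neutrophil markers summed to 49.1 to 52.6 CPM at 14 dpi against 679 to 683 CPM untouched, and epicardial and fibroblast markers to 5990 to 7610 against 1230 to 1260 CPM.

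In wild type the same comparisons describe the course without the kit alleles, and again share 1 untouched pair. At 2 dpi 7 of 10 clock genes were lower and 0 higher, beside 51.6% of all tested genes called and 25.2% called lower. Among period genes, per2 had 188 scaled CPM at 2 dpi against 428 untouched (log2 -1.18 ± 0.14, adjusted p = 5.3e-06), per3 58.7 against 121 (-1.04 ± 0.15, adjusted p = 2.8e-05) and per1b 144 against 200 (-0.47 ± 0.09, adjusted p = 0.00057). Both repressor genes fell, nr1d2b to 91.7 against 155 (log2 -0.75 ± 0.12, adjusted p = 8.3e-05) and nr1d1 to 145 against 225 (-0.63 ± 0.12, adjusted p = 0.00032). Both output genes fell, tefa to 70.7 against 121 (log2 -0.76 ± 0.11, adjusted p = 2.1e-05) and dbpa to 6.24 against 12.6 (-0.93 ± 0.16, adjusted p = 0.00012). The activators did not pass the test, with log2 differences of 0.16 for arntl1a and -0.29 for clocka, nor did per1a (-0.35 ± 0.19, adjusted p = 0.13). The 7 calls held without any 1 library. On CPM as deposited, where the median of all tested genes was 0.27 on the log2 scale, 5 of the 7 remained called, and per1b (log2 -0.16, adjusted p = 0.2) and nr1d1 (-0.32, adjusted p = 0.076) were lost, with nr1d2b at -0.45 and tefa at -0.46. After quantile normalization all 7 were called, with per1b at -0.26 and nr1d1 at -0.40. Endothelial and endocardial markers were also low here, 1990 to 2090 CPM at 2 dpi against 3660 to 3710 CPM untouched, and epicardial and fibroblast markers high, 11100 to 12600 against 2370 to 2440 CPM. The cardiomyocyte markers summed to 53700 to 67500 CPM at 2 dpi against 86800 to 89800 CPM untouched.

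At 5 dpi 4 of 10 were called in wild type, beside 32.8% of all tested genes. per2 (log2 -0.65 ± 0.14, adjusted p = 0.0026), per1b (-0.41 ± 0.09, adjusted p = 0.0034) and dbpa (-0.70 ± 0.16, adjusted p = 0.0029) were lower at 5 dpi than untouched, and clocka was higher (0.62 ± 0.22, adjusted p = 0.036). per3 did not pass, with 119 scaled CPM at 5 dpi against 121 untouched. Leaving out wild-type untouched replicate 2 or either 5 dpi library ended the clocka call (log2 0.43 to 0.65, adjusted p 0.11 to 0.26), as did 3 other settings. That of per1b was lost on CPM as deposited (-0.21) and after quantile normalization (-0.23), which left 0 higher and 2 lower.

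At 7 dpi 3 of 10 were called in wild type, beside 34.8% of all tested genes. per2 was lower by 1.68-fold (log2 -0.75 ± 0.14, adjusted p = 0.00069), arntl1a lower by 1.66-fold (-0.62 ± 0.22, adjusted p = 0.04) and tefa higher by 1.24-fold (0.31 ± 0.11, adjusted p = 0.031). With the near-identical pairs averaged only per2 was called, with adjusted p = 0.082 for tefa and 0.079 for arntl1a. The tefa call was lost without any 1 of the 4 libraries compared (log2 0.28 to 0.34), and that of arntl1a without wild-type untouched replicate 1, wild-type 7 dpi replicate 1 or either kit mutant 2 dpi library (log2 -0.62 to -0.23), so that 1 call was left without wild-type untouched or 7 dpi replicate 1; without wild-type untouched replicate 2 arntl1a was at -1.0. On CPM as deposited 2 were higher and 1 lower, with tefa at 0.55 and arntl1a not called (-0.40), and per2 was at -0.48 after quantile normalization.

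At 14 dpi 1 of 10 was called in wild type, beside 24.9% of all tested genes: per1b, with 279 scaled CPM at 14 dpi against 200 untouched (log2 0.48 ± 0.09, adjusted p = 0.0016). Its paralogue per1a had 36.4 against 25.2 without passing (log2 0.52). Leaving out 1 library of 8 moved this count to 2 to 4: it was 4 without either kit mutant 14 dpi library, 3 when untouched replicate 2 of wild type was left out, and 2 when untouched replicate 1 or any 1 of the wild-type 2 and 7 dpi libraries was.

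The comparison of kit mutants with wild type at each time addresses the kit genotype. In untouched hearts 3 of 10 clock genes were called, beside 40.1% of all tested genes. per1a was higher in kit mutants by 1.46-fold (log2 0.54 ± 0.19, adjusted p = 0.029), and nr1d1 (-0.44 ± 0.12, adjusted p = 0.0068) and dbpa (-0.47 ± 0.16, adjusted p = 0.023) were lower. With the near-identical mutant pair averaged 0 were called by limma (adjusted p 0.081 to 0.16). The calls were also lost without 1 library: dbpa without any of the 4 (adjusted p 0.059 to 0.12), per1a without either kit mutant library or wild-type replicate 2 (0.096 to 0.24), and nr1d1 without replicate 2 of either genotype (0.055 to 0.1). Without either kit mutant library 1 call was left. By edgeR and by limma without averaging the count was 3, and 5 clock genes had an unadjusted p under 0.05. Both on CPM as deposited and after quantile normalization 0 were higher and 2 lower, per1a being lost (adjusted p = 0.07 and 0.075). Neutrophil markers stood at 679 to 683 CPM in kit mutants and 23.6 to 27.2 CPM in wild type here, and erythrocyte markers at 2050 to 2080 and 6740 to 6850 CPM.

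At 2 dpi 8 of 10 were called, 6 higher and 2 lower in kit mutants, beside 57.7% of all tested genes called and 27.3% called higher. All 4 period genes were higher. per3 had 199 scaled CPM in kit mutants against 58.7 in wild type (log2 1.75 ± 0.15, adjusted p = 1.4e-07), and per2 had 490 against 188 (1.38 ± 0.14, adjusted p = 9.3e-07). per1a had 39.2 against 19.4 (log2 0.98 ± 0.19, adjusted p = 0.00032) and per1b 228 against 144 (0.65 ± 0.09, adjusted p = 2.2e-05). The repressor gene nr1d1 was 1.55-fold higher (log2 0.63 ± 0.12, adjusted p = 0.00025). These 5 held under every setting tried and without any 1 library. Smaller calls were nr1d2b, higher (log2 0.35 ± 0.12, adjusted p = 0.02), tefa, lower (-0.30 ± 0.11, adjusted p = 0.025), and arntl1a, lower (-0.67 ± 0.22, adjusted p = 0.017). All 3 were lost with the near-identical pairs averaged (adjusted p = 0.12, 0.14 and 0.091) and without 1 library: tefa without any of the 4 compared, arntl1a without either mutant library or wild-type replicate 1 (log2 -0.70 to -0.60), and nr1d2b without replicate 2 of either genotype (0.20 to 0.31). Without kit mutant replicate 2 the count was 5. After quantile normalization nr1d2b was at 0.13 and tefa at -0.49. Lane and genotype coincide at this time. The neutrophil markers summed to 67.4 to 69.8 CPM in kit mutants and 26.7 to 79.8 CPM in wild type, and the macrophage markers to 1070 to 1110 against 221 to 529 CPM.

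At 5 dpi 4 of 10 were called, beside 38.6% of all tested genes. clocka was 3.34-fold lower in kit mutants, 1.77 against 5.91 scaled CPM (log2 -1.33 ± 0.22, adjusted p = 0.00022). per1b was higher by 1.47-fold (log2 0.55 ± 0.09, adjusted p = 0.00032) and tefa by 1.32-fold (0.39 ± 0.11, adjusted p = 0.008), and per3 was lower (-0.52 ± 0.15, adjusted p = 0.011). The per3 call was lost without kit mutant replicate 1 or wild-type replicate 2 (log2 -0.42 to -0.38). That of tefa was lost without wild-type replicate 1 (adjusted p = 0.051), on CPM as deposited (log2 0.20) and after quantile normalization (0.26), and per1b was at 0.35 and 0.36 under these scalings.

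At 7 dpi 4 of 10 were called, beside 27.2% of all tested genes. per1a had 39.0 scaled CPM in kit mutants against 19.4 in wild type (log2 0.98 ± 0.19, adjusted p = 0.0012), and per2 had 464 against 256 (0.86 ± 0.14, adjusted p = 0.00043). per3 was higher by 1.56-fold (log2 0.65 ± 0.15, adjusted p = 0.0043), and nr1d1 lower by 1.51-fold (-0.60 ± 0.12, adjusted p = 0.0016). Without wild-type replicate 1 per3 was not called (log2 0.47, adjusted p = 0.07), nor was it with the near-identical pairs averaged (adjusted p = 0.075).

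At 14 dpi 5 of 10 were higher in kit mutants and 0 lower, beside 31% of all tested genes called and 16.2% called higher. per3 had 341 scaled CPM in kit mutants against 118 in wild type (log2 1.52 ± 0.15, adjusted p = 5.1e-06), and per2 had 845 against 362 (1.19 ± 0.14, adjusted p = 2.3e-05). per1a was higher by 1.94-fold (adjusted p = 0.0019), dbpa by 1.59-fold (adjusted p = 0.0062) and per1b by 1.3-fold (adjusted p = 0.0056). Without wild-type 14 dpi replicate 2 per1b was not called (log2 0.28, adjusted p = 0.075), and without kit mutant 14 dpi replicate 2 per1a was at 0.55. The genotype difference of per1a was called at 4 of the 5 times, and so was that of per3, which had the opposite direction at 5 dpi.

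**Figure D2:**
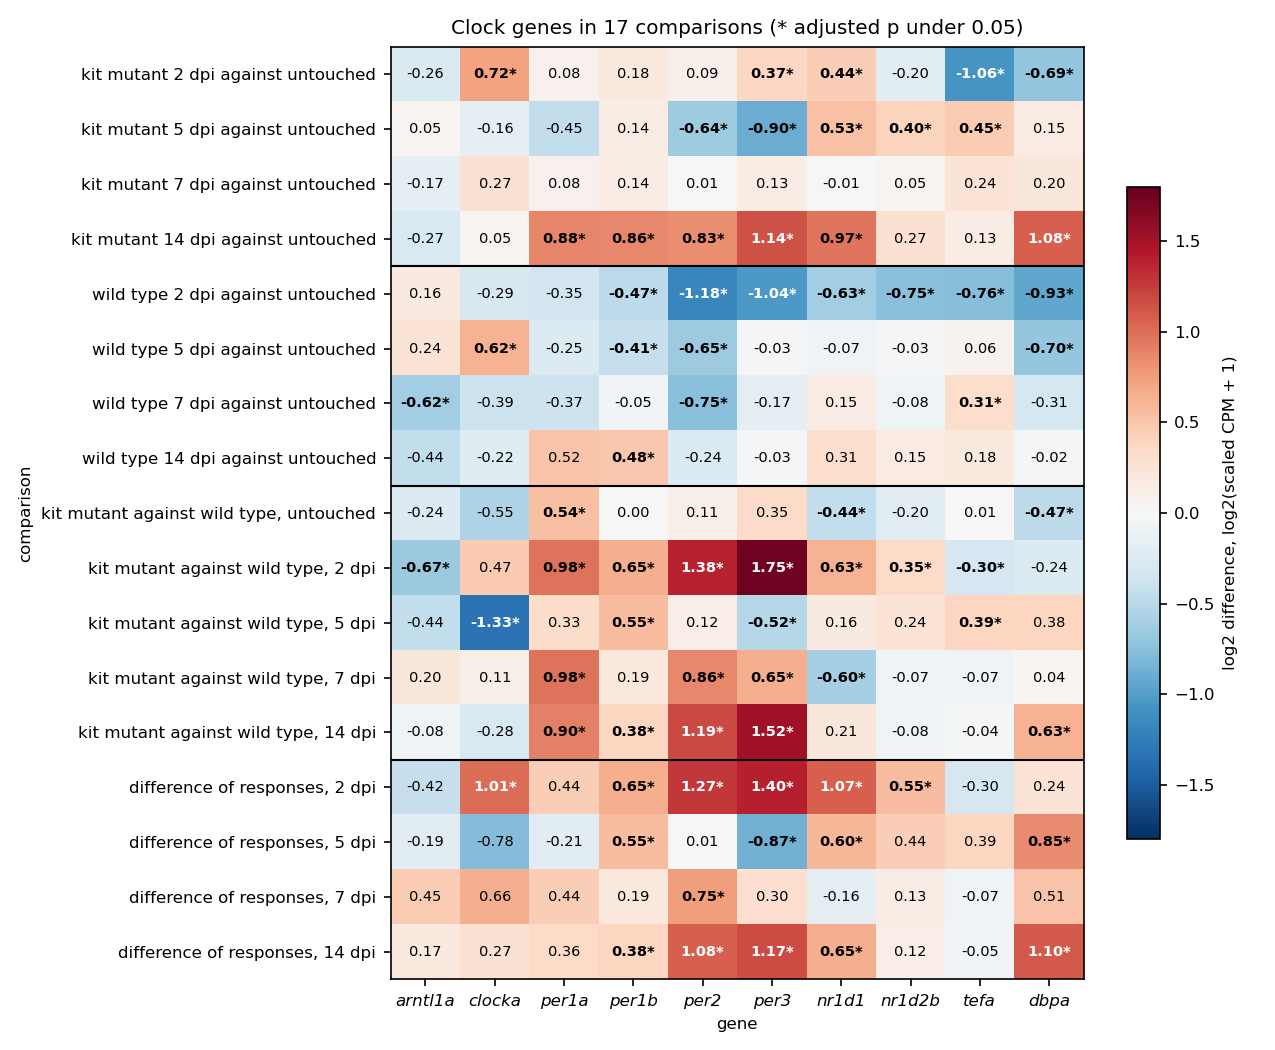
Log2 differences of the 10 clock genes (columns) in 17 comparisons (rows; colour and printed value on the log2(scaled CPM + 1) scale), with calls at an adjusted p under 0.05 in bold with an asterisk. The wild-type 2 dpi row is blue for 7 called genes, and the rows of kit mutant against wild type at 2 and 14 dpi are darkest red for per3 (1.75 and 1.52).

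The difference between the 2 genotypes' responses was tested as an interaction, kit mutant change minus wild-type change from untouched. At 2 dpi 6 of 10 clock genes were called, all with the larger value in kit mutants, beside 40.9% of all tested genes called and 20.6% called higher. per3 differed by 1.40 ± 0.21 (adjusted p = 9.1e-05), per2 by 1.27 ± 0.20 (adjusted p = 0.00015) and nr1d1 by 1.07 ± 0.16 (adjusted p = 0.00012) on the log2 scale. per1b differed by 0.65 (adjusted p = 0.0011), clocka by 1.01 (adjusted p = 0.015) and nr1d2b by 0.55 (adjusted p = 0.016). The 2 dpi responses of tefa, low in both genotypes, differed by -0.30 without passing. Leaving out replicate 1 of wild-type untouched, kit mutant untouched or kit mutant 2 dpi ended the clocka call (log2 0.70 to 0.84). That of nr1d2b ended without wild-type untouched replicate 1 or replicate 2 of either 2 dpi group (0.40 to 0.51), with the near-identical pairs averaged (adjusted p = 0.13), on unscaled CPM (0.055) and after quantile normalization (0.11).

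At 5 dpi 4 of 10 were called, beside 34.9% of all tested genes, and at 7 dpi 1 of 10, beside 18.8%. At 5 dpi the response of per3 was lower in kit mutants (log2 -0.87 ± 0.21, adjusted p = 0.0049), and those of dbpa (0.85 ± 0.22, adjusted p = 0.0078), nr1d1 (0.60, adjusted p = 0.011) and per1b (0.55, adjusted p = 0.0051) were higher. At 7 dpi the response of per2 was higher in kit mutants (0.75 ± 0.20, adjusted p = 0.016). With the near-identical pairs averaged nr1d1 and per1b at 5 dpi and per2 at 7 dpi were lost (adjusted p = 0.074, 0.051 and 0.18). The nr1d1 call was also lost without wild-type untouched replicate 2 (log2 0.46), and the per2 call without wild-type 7 dpi replicate 1, kit mutant untouched replicate 1 or kit mutant 7 dpi replicate 2 (0.66 to 0.75); without kit mutant untouched replicate 2 there were 2 calls at 7 dpi. On CPM as deposited the 5 dpi count was 1 higher and 2 lower, with nr1d1 at 0.41 and per1b at 0.36 not called, and after quantile normalization 2 higher and 1 lower.

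At 14 dpi 5 of 10 responses were called, all higher in kit mutants, beside 33.2% of all tested genes called and 17.5% called higher. They were per3 (log2 1.17 ± 0.21, adjusted p = 0.00047), dbpa (1.1 ± 0.22, adjusted p = 0.0011), per2 (1.08 ± 0.20, adjusted p = 0.00069), nr1d1 (0.65 ± 0.16, adjusted p = 0.006) and per1b (0.38, adjusted p = 0.035). With the near-identical pairs averaged nr1d1 stood at the threshold (adjusted p = 0.05) and per1b was lost (0.15). The per1b call was also lost without either kit mutant untouched library or replicate 2 of wild-type untouched, wild-type 14 dpi or kit mutant 14 dpi (log2 0.28 to 0.41), and was at 0.58 on CPM as deposited and after quantile normalization.

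From the activator and repressor arms of the loop 1 gene each was set side by side within each library, as a contrast of 2 genes. It was log2(scaled CPM + 1) of arntl1a minus that of per3. Because of the added 1, this contrast is not free of the library factor. Over group means arntl1a had a log2 range of 0.86 and per3 of 2.52, so the contrast mostly followed per3. In kit mutants it was -3.83 and -3.98 untouched, -4.50 and -4.57 at 2 dpi, -2.93 and -2.99 at 5 dpi, -4.13 and -4.28 at 7 dpi, and -5.73 and -4.90 at 14 dpi. In wild type it was -3.0 and -3.63 untouched, -2.23 and -2.0 at 2 dpi, -2.88 and -3.20 at 5 dpi, -3.70 and -3.81 at 7 dpi, and -3.84 and -3.59 at 14 dpi. The kit mutant pairs lay below the wild-type pairs of the same time except at 5 dpi, where they overlapped. The wild-type 2 dpi pair was highest of all groups and the kit mutant 14 dpi pair lowest. These are values without a test, and the gene pair was chosen with the period gene results known.

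**Figure D3:**
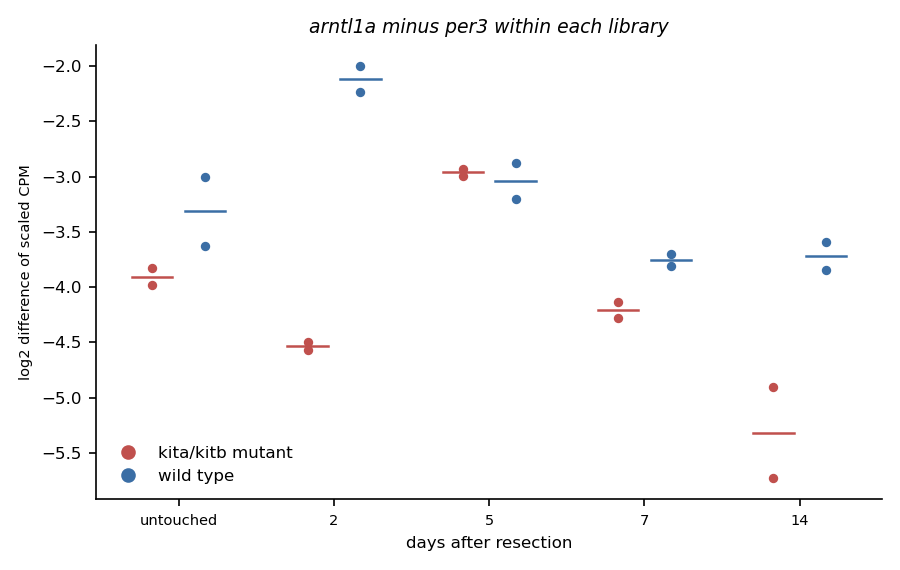
Log2(scaled CPM + 1) of arntl1a minus that of per3 within each library (y axis) by days after resection (x axis). Kit mutant is in red and wild type in blue. Points are libraries and bars are means of 2. Wild type at 2 dpi (-2.23 and -2.0) and kit mutants at 14 dpi (-5.73 and -4.90) are the ends of the range.

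How the clock genes moved together is given as correlations of log2 levels across the 10 libraries of a genotype, with no test, since libraries share groups and depth. per3 and per2 had r = 0.96 in kit mutants and 0.79 in wild type. After leaving out the 2 libraries farthest from the median of per3, r was 0.97 in kit mutants and 0.45 in wild type, where those 2 were the 2 dpi pair. In kit mutants those 2 were 5 dpi replicate 1 and 14 dpi replicate 1, so the other library of each of these groups stayed in. The kit mutant value was thus checked less strictly than the wild-type value, from which a whole group was removed. per3 and tefa had r = -0.34 in kit mutants and 0.88 in wild type, and without those 2 libraries -0.27 and -0.12, so the wild-type value rests on the 2 dpi pair. nr1d2b and tefa had r = 0.82 in kit mutants and 0.89 in wild type, and without the 2 libraries farthest from the median of nr1d2b 0.84 and -0.04. Here too the wild-type libraries left out were the 2 dpi pair. Those of kit mutants were 14 dpi replicate 2 and 5 dpi replicate 1, from different groups. per3 and arntl1a had r = -0.55 in kit mutants and -0.19 in wild type. Without the 2 libraries farthest from the median of per3 it was -0.32 in kit mutants and 0.49 in wild type, where those 2 were the 2 dpi pair.

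**Figure D4:**
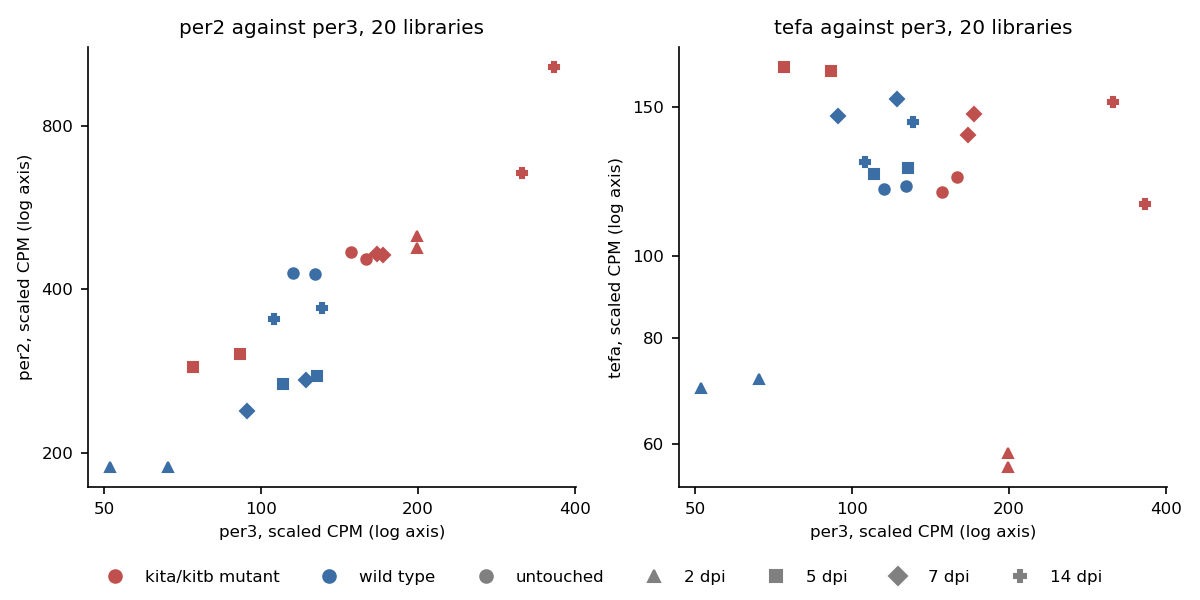
Levels of per2 (left) and tefa (right) against per3 in the 20 libraries (all axes scaled CPM on log scales), kit mutant in red and wild type in blue, with a symbol for each time. per2 runs along with per3 in kit mutants (r = 0.96). In wild type r is 0.79 with the 2 dpi pair and 0.45 without it. At 2 dpi tefa is low in both kit mutants (58.5 and 56.3) and wild type (71.6 and 69.8). There per3 is 199 and 199 in kit mutants and 66.1 and 51.3 in wild type.

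Over all 20 libraries, among genes averaging 5 scaled CPM or more, those outside the clock lists most like per3 by Pearson correlation were spag9a (r = 0.96), pmepa1 (0.95), ptpn11b (0.95), jarid2b (0.94) and ythdc1 (0.94). Among clock genes per2 ranked 12 of all 10913 other tested genes in likeness to per3, followed by roraa at 158, dbpb at 230, hlfa at 253 and per1a at 288. Under the same minimum level the genes most like arntl1a were poll (r = 0.80), tprkb (0.78), ercc2 (0.77), palm1a (0.75) and mcrs1 (0.74), and its highest clock gene was the paralogue arntl1b at rank 377 (0.52). The cryptochrome gene cry3 ranked 5 from the bottom of that order (r = -0.75).

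Of 54 further clock gene symbols, 37 were in the matrix and 34 were tested. In wild type at 2 dpi 3 were higher and 21 lower than untouched, 70.6% of the 34 called beside 51.6% of all tested genes (25.2% called lower), with a median log2 difference of -0.49 against 0 for all tested genes, and on CPM as deposited 3 were higher and 12 lower. The falls covered 7 of 8 genes with a cry symbol, 4 of 4 PAR bZIP genes and both bhlhe repressor genes. The cry genes were grouped by symbol, with cry5 and cry-dash among them, so their counts are not counts of loop repressors. bhlhe40, a repressor that binds E-boxes, had 294 and 294 scaled CPM at 2 dpi against 784 and 933 untouched (log2 -1.54 ± 0.11, adjusted p = 1.8e-08). cry-dash (log2 -1.13, adjusted p = 1.3e-06) and the activating receptor gene rorab (-1.0, adjusted p = 8.3e-06) fell, and nfil3, whose product competes with the PAR bZIP factors, rose (1.34 ± 0.15, adjusted p = 2.7e-06). In kit mutants at 2 dpi 12 were higher and 11 lower, 67.6% called beside 52.4% of all tested genes, and on CPM as deposited 13 higher and 3 lower. On scaled CPM the falls covered 7 of 8 genes with a cry symbol, with cry1a at log2 -1.20 ± 0.08 (adjusted p = 7.3e-09) and cry5 at -1.40 ± 0.15 (adjusted p = 1.3e-06), while 0 of 4 PAR bZIP genes in this list fell. With the near-identical pairs averaged the counts in kit mutants at 2 dpi were 6 higher and 5 lower, so fewer cry genes fell under that setting and on CPM as deposited.

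Between genotypes at 2 dpi 18 of these 34 were higher in kit mutants and 2 lower, 58.8% called beside 57.7% of all tested genes, with a median log2 difference of 0.44 against -0.04 for all tested genes, and 14 and 0 with the near-identical pairs averaged. npas2, a paralogue of clock, had 105 and 101 scaled CPM in kit mutants against 9.30 and 13.8 in wild type (log2 3.07 ± 0.24, adjusted p = 5.9e-08). nr1d4b, a gene of the nr1d family, had 17.5 and 15.4 against 2.98 and 2.41 (log2 2.24 ± 0.17, adjusted p = 4.8e-08). cry3 had 130 and 130 against 64.7 and 56.0 (log2 1.1 ± 0.10, adjusted p = 1.7e-07), and dbpb, a paralogue of dbpa, had 22.5 and 23.7 against 9.54 and 9.10 (1.22 ± 0.14, adjusted p = 1.8e-06). In each of these 4 genes the kit mutant libraries lay above the wild-type libraries. All 4 PAR bZIP genes of this list were higher in kit mutants at 2 dpi, whereas tefa was lower and dbpa did not pass (log2 -0.24).

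In untouched hearts 10 of the 34 were higher and 6 lower in kit mutants, 47.1% called beside 40.1% of all tested genes, and the smallest adjusted p were those of nfil3 and bhlhe genes. The counts were 3 and 4 with the near-identical pair averaged, and 6 and 4 without kit mutant replicate 2. nfil3-6 had 344 and 333 scaled CPM in kit mutants against 728 and 882 in wild type (log2 -1.24 ± 0.12, adjusted p = 8e-07). bhlhe40 had 404 and 411 against 784 and 933 (log2 -1.07 ± 0.11, adjusted p = 1.6e-06) and bhlhe41 28.5 and 30.0 against 57.8 and 120 (-1.48 ± 0.21, adjusted p = 4.5e-05), the last at -0.96 without wild-type untouched replicate 2. cry5 was higher in kit mutants (log2 0.87 ± 0.15, adjusted p = 0.00032). bhlhe40 had a genotype difference of 0.01 on the log2 scale at 2 dpi, and was lower in kit mutants at 5 dpi (log2 -1.33, adjusted p = 6.5e-07), 7 dpi (-0.50, adjusted p = 0.0031) and 14 dpi (-0.55, adjusted p = 0.0013, and -0.36 on CPM as deposited).

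**Figure D5:**
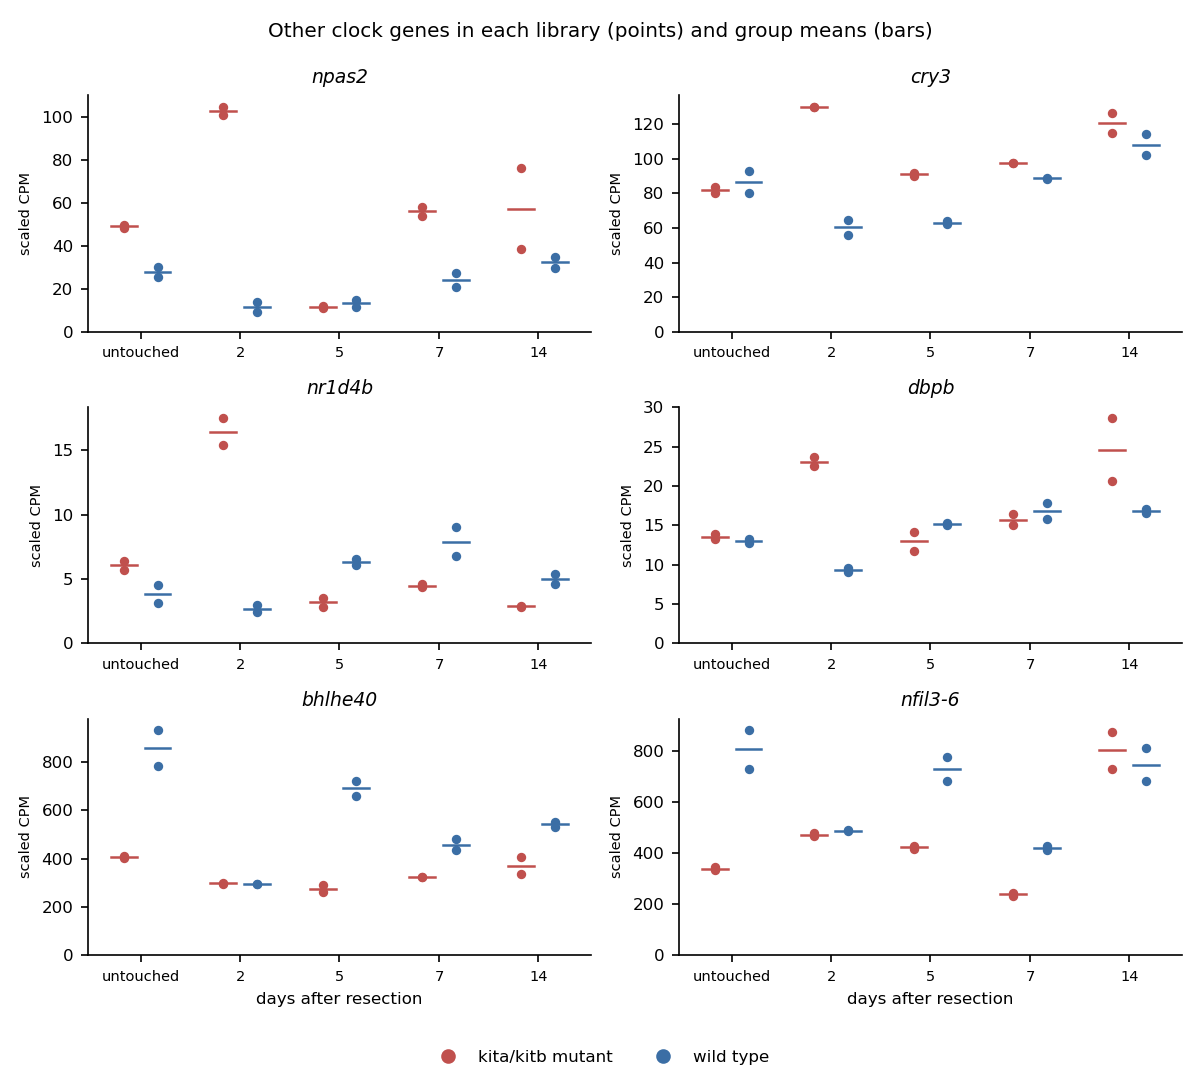
Scaled CPM of 6 further clock genes (y axes, from 0) in each library by days after resection (x axes), kit mutant in red and wild type in blue; points are libraries and bars are means of 2. npas2, cry3, nr1d4b and dbpb separate the genotypes at 2 dpi (105 and 101 against 9.30 and 13.8 for npas2), and bhlhe40 and nfil3-6 separate them in untouched hearts.

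At the later times the share of the 34 called in each time course was near that of all tested genes. It was 50% at 5 dpi, 11.8% at 7 dpi and 35.3% at 14 dpi in kit mutants, beside 51.3%, 14.6% and 39.4% of all tested genes. In wild type it was 32.4%, 38.2% and 26.5%, beside 32.8%, 34.8% and 24.9%. In kit mutants 7 were higher and 10 lower at 5 dpi than untouched, 2 and 2 at 7 dpi, and 8 and 4 at 14 dpi; on CPM as deposited the 7 dpi counts were 5 and 0 and the 14 dpi counts 16 and 2. With the near-identical pairs averaged the 5 dpi counts were 2 and 6 and the 7 dpi calls were lost, as they were without kit mutant untouched replicate 1 or 7 dpi replicate 1, while 1 and 1 were left without untouched replicate 2. The 5 dpi counts were 4 and 7 without either kit mutant untouched library and 5 and 6 without 5 dpi replicate 1. npas2 had 11.2 and 12.1 scaled CPM in kit mutants at 5 dpi against 49.8 and 48.5 untouched (log2 -1.99 ± 0.24, adjusted p = 4.8e-06), a trough at the same time as that of per3. At 14 dpi nfil3-6 (log2 1.24, adjusted p = 1.1e-06) and rorab (0.83, adjusted p = 0.00011) were higher than untouched in kit mutants. In wild type 6 were higher and 5 lower at 5 dpi, 3 and 10 at 7 dpi, and 7 and 2 at 14 dpi, with 10 and 1 at 5 dpi and 6 and 5 at 7 dpi on CPM as deposited. These also moved without 1 library. At 5 dpi they were 4 and 3 without wild-type untouched replicate 2, and 3 and 3 or 3 and 4 without 5 dpi replicate 1 or 2. At 7 dpi they were 3 and 5 without 7 dpi replicate 1. At 14 dpi they were 3 and 2 without 14 dpi replicate 1, and 11 and 3 without either kit mutant 14 dpi library. nfil3 was higher in wild type at 5 dpi (log2 1.16, adjusted p = 4.1e-05) and 7 dpi (1.40, adjusted p = 3.7e-06). Between genotypes 44.1% were called at 5 dpi, 44.1% at 7 dpi and 41.2% at 14 dpi, beside 38.6%, 27.2% and 31% of all tested genes. In kit mutants 6 were higher and 9 lower at 5 dpi, 10 and 5 at 7 dpi, and 8 and 6 at 14 dpi. With the near-identical pairs averaged these were 5 and 8, 8 and 2, and 6 and 4. On CPM as deposited they were 5 and 12, 9 and 6, and 15 and 2. At 7 dpi 6 of 8 genes with a cry symbol were higher and 0 lower. cry5 was higher in kit mutants at 7 dpi, 18.6 and 20.7 against 6.74 and 6.41 scaled CPM (log2 1.44 ± 0.15, adjusted p = 1.6e-05), as it was at 14 dpi (0.97, adjusted p = 0.00024).

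A list of genes known to be induced by light in zebrafish cells had 9 tested members, 2 of which (per2 and tefa) are among the 10 clock genes and 3 among the further clock genes. At 2 dpi 1 was higher and 5 lower in kit mutants, and 0 higher and 7 lower in wild type, than untouched, 66.7% and 77.8% of the list called beside 52.4% and 51.6% of all tested genes. On CPM as deposited the counts were 2 and 4 in kit mutants and 1 and 7 in wild type. The DNA repair gene ddb2 fell in both genotypes, to 10.9 and 10.8 scaled CPM at 2 dpi against 25.3 and 24.4 untouched in kit mutants (log2 -1.12 ± 0.14, adjusted p = 4e-06), and to 10.6 and 10.3 against 28.5 and 19.2 in wild type (-1.09 ± 0.14, adjusted p = 8.2e-06). Of the same list neil1 rose in kit mutants at 2 dpi (log2 0.73, adjusted p = 8.6e-05) and was not called in wild type (0.29). xpc was called in neither (-0.11 in kit mutants and -0.38 in wild type). lonrf1l fell in wild type (log2 -0.61, adjusted p = 0.00026) and was higher in kit mutants than in wild type at 2 dpi (0.89, adjusted p = 5.9e-06). At 7 dpi 6 of 9 were higher and 1 lower in kit mutants than in wild type, beside 27.2% of all tested genes called, which became 3 and 0 with the near-identical pairs averaged and 4 and 0 without kit mutant 7 dpi replicate 2.

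Per1 genes and others also respond to glucocorticoids, and a list of 9 tested responsive genes, per1a among them, was read beside them. The glucocorticoid-induced factor gene klf9 was higher in kit mutants than in wild type in untouched hearts (79.3 and 82.5 against 43.7 and 23.4 scaled CPM, log2 1.31 ± 0.19, adjusted p = 4.6e-05, and 0.87 without wild-type replicate 2) and at 2 dpi (121 and 133 against 33.5 and 26.6, log2 2.05 ± 0.19, adjusted p = 2.9e-07). It was also higher in kit mutants at 5 dpi (log2 1.69, adjusted p = 1e-05) and 7 dpi (1.09, adjusted p = 0.00058), and not called at 14 dpi (0.43). Of the same list fkbp5 was also higher in kit mutants, untouched (log2 0.97 ± 0.24, adjusted p = 0.0039) and at 5 dpi (1.23 ± 0.24, adjusted p = 0.00085). The mean level of fkbp5 was 1590 scaled CPM in kit mutants against 850 in wild type at 2 dpi. It was 1420 against 713 at 7 dpi and 2270 against 1720 at 14 dpi. Some other members differed. cebpd was lower in kit mutants at 2 dpi (log2 -0.31), 7 dpi (-0.81, adjusted p = 0.00018) and 14 dpi (-0.41). sgk1 was lower at 5 dpi (-0.61, adjusted p = 0.0021) and higher at 2 dpi (0.62). Of the list 3 were higher and 1 lower at 5 dpi, 3 and 2 at 7 dpi, and 2 and 1 at 14 dpi. These are 44.4%, 55.6% and 33.3%, beside 38.6%, 27.2% and 31% of all tested genes called. The 7 dpi counts were 2 and 1 with the near-identical pairs averaged. In wild type klf9 rose at 14 dpi, to 109 and 102 against 43.7 and 23.4 untouched (log2 1.69 ± 0.19, adjusted p = 1e-05), a time at which per1b, not in this list, was also higher. per1a, which is in the list, was not called at that time (log2 0.52, adjusted p = 0.051). There 4 of the list were higher and 1, sgk1, lower (log2 -0.44), 55.6% called beside 24.9% of all tested genes. At 2 dpi in wild type 0 were higher and 4 lower, 44.4% called beside 51.6%. In kit mutants 1 was higher and 3 lower at 2 dpi than untouched, and 2 and 2 at 5 dpi. The counts were 0 and 1 at 7 dpi and 3 and 0 at 14 dpi. Those are 44.4%, 44.4%, 11.1% and 33.3%, beside 52.4%, 51.3%, 14.6% and 39.4% of all tested genes. With the near-identical pairs averaged they were 0 and 1, 1 and 1, 0 and 0, and 3 and 0. The 3 at 14 dpi were klf9 (log2 0.81), tsc22d3 (0.51) and per1a (0.88). Over the list 5 were higher and 1 lower in kit mutants than in wild type at 2 dpi (5 and 0 on CPM as deposited), and 3 higher and 0 lower untouched (1 and 0 with the near-identical pair averaged). These are 66.7% and 33.3% of the list, beside 57.7% and 40.1% of all tested genes called.

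Immediate early genes, which answer to acute stimuli and handling of cells, moved with the period genes at some times and not at others. In wild type 0 were higher and 13 of 15 lower at 2 dpi than untouched, 86.7% called beside 51.6% of all tested genes, with ier2 at log2 -2.02 ± 0.13 (adjusted p = 7.1e-09) and fosb at -2.11 ± 0.14 (adjusted p = 1.1e-08). In kit mutants 6 were higher and 0 lower at 14 dpi than untouched, 40% called, near the 39.4% of all tested genes (21.3% called higher). Among them fosb had 436 and 389 scaled CPM against 109 and 113 (log2 1.89 ± 0.14, adjusted p = 9.6e-08). On CPM as deposited and without kit mutant 14 dpi replicate 2 that count was 10 and 0, and after quantile normalization 11 and 0. In wild type 1 was higher and 3 lower at 5 dpi, 1 and 10 at 7 dpi, and 1 and 7 at 14 dpi. Those are 26.7%, 73.3% and 53.3%, beside 32.8%, 34.8% and 24.9% of all tested genes. At 14 dpi per1b was higher in wild type. In kit mutants the counts were 4 and 4 at 2 dpi, 2 and 6 at 5 dpi, and 0 and 4 at 7 dpi. Those are 53.3%, 53.3% and 26.7%, beside 52.4%, 51.3% and 14.6%. On CPM as deposited wild type at 5 dpi had 4 and 0, and kit mutants at 2 dpi 10 and 2. Between genotypes 1 was higher and 11 lower in kit mutants untouched, 10 and 0 at 2 dpi, 0 and 9 at 5 dpi, 0 and 9 at 7 dpi, and 6 and 0 at 14 dpi. That is 80%, 66.7%, 60%, 60% and 40% of the list called, beside 40.1%, 57.7%, 38.6%, 27.2% and 31% of all tested genes. The 7 dpi count became 0 and 4 with the near-identical pairs averaged and 0 and 5 without wild-type 7 dpi replicate 2, and the 14 dpi count 3 and 0 without wild-type 14 dpi replicate 1 or with pairs averaged, and 10 and 0 on CPM as deposited or after quantile normalization. At 2 and 14 dpi this direction was that of per2 and per3, and at 7 dpi it was the reverse. At 5 dpi it was that of per3 (log2 -0.52) and not of per2 (0.12, not called). In untouched hearts neither per2 (0.11) nor per3 (0.35) was called, and both differences had the opposite sign to most of the list. In the interaction test 13 of 15 were higher and 0 lower in kit mutants at 2 dpi, and 12 and 1 at 14 dpi. Each is 86.7% of the list called, beside 40.9% and 33.2% of all tested genes. At 5 dpi 2 were higher and 4 lower (40% beside 34.9%), and at 7 dpi 2 and 1 (20% beside 18.8%). With the near-identical pairs averaged the counts at 2, 5 and 7 dpi were 11 and 0, 0 and 3, and 0 and 1. The part of the cell isolation in the clock gene values was not tested.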

How the data were processed

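Polyadenylated RNA of 20 libraries was measured. Per the submitters' processing notes, reads were checked with FastQC and counted with featureCounts on danRer10, with no versions; the aligner, not given in the sources used here, and any rule for reads shared by paralogues are not known. The deposited values were CPM per gene symbol, made by the authors. Their steps gave whole reads (100% of values within 0.1 read), from which depth was recovered. No annotation of that build was used, so no positions are given. 3 lines without gene names were left out. The labels of the 14 dpi samples name another day in 1 field, and 14 was taken from title and time point.

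CPM were divided by median-ratio factors (11000 genes above 0 in all libraries). Genes reaching a CPM of 1 in 2 or more libraries entered limma-trend (limma 3.58.1, R 4.3.3) on log2(scaled CPM + 1), with 10 group means, 10 residual degrees of freedom (16.2 with the prior), 17 contrasts, two-sided tests and Benjamini-Hochberg adjustment over genes. The fit was also run on counts simulated with the same variability in every group. Near-identical pairs were not part of that simulation, so it does not show how they affect the calls. The pseudocount understates changes of low genes such as clocka. Read counts are not molecules, so depth covers counting error only. edgeR 4.0.16 (quasi-likelihood, TMM) was run on recovered reads as an alternative, beside the settings named in the closing section.

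All 10 clock genes are named with all values. From the further clock genes up to 4 per comparison, and from the other lists up to 2, were open to naming, by smallest adjusted p under 0.05 with the higher group averaging at least 5 scaled CPM. The clock genes and lists were chosen with earlier results of these data known, and the roles of further clock genes after their values were seen. Replicate numbers did not pair samples.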

Additional observations from a re-analysis of the deposited data

Results flagged for a closer look

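The responses of clock genes to injury differed between kit mutants and wild type in 16 tests of the interaction (limma, adjusted p under 0.05), given as the kit mutant change minus the wild-type change on the log2 scale. At 2 dpi these were per1b (0.65), per2 (1.27), per3 (1.40), nr1d1 (1.07), nr1d2b (0.55) and clocka (1.01). At 5 dpi they were per1b (0.55), per3 (-0.87), nr1d1 (0.60) and dbpa (0.85). At 7 dpi it was per2 (0.75). At 14 dpi they were per1b (0.38), per2 (1.08), per3 (1.17), nr1d1 (0.65) and dbpa (1.1). Among these called tests per3 had both signs, negative at 5 dpi and positive at 2 and 14 dpi. The untouched pairs enter all of these differences. Of the 10 clock genes 60% were called at 2 dpi, 40% at 5 dpi, 10% at 7 dpi and 50% at 14 dpi. Of all tested genes these shares were 40.9%, 34.9%, 18.8% and 33.2%. Some calls were lost under an alternative setting or without a library. They were nr1d2b and clocka at 2 dpi, per1b and nr1d1 at 5 dpi, per2 at 7 dpi, and per1b and nr1d1 at 14 dpi. Lane 7 holds the kit mutant 2 dpi pair alone, so lane cannot be told apart from that group; the other 18 libraries are of lane 8. The hour of collection is not given in the labels used here.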

How the results depend on the processing

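Of the 71 calls of clock genes over the 17 comparisons, 44 held under every alternative and 0 reversed. edgeR and a filter of CPM 5 kept all 71, a pseudocount of 0.25 kept 70, no filter 67, quantile normalization 64 and CPM as deposited 59. Fitting each genotype alone kept 30 of 31, and leaving out the lane 7 pair 51 of 52. After quantile normalization 2 clock genes were called in wild type at 5 dpi, in place of 4. Averaging the near-identical pairs kept 52 calls; it left 1 call in wild type at 7 dpi, 2 in kit mutants at 2 dpi, 0 between genotypes untouched and 5 at 2 dpi, and for the responses 2 at 5 dpi, 0 at 7 dpi and 3 at 14 dpi. CPM as deposited moved the median difference of all tested genes by up to 0.30 on the log2 scale, and quantile normalization and edgeR by at most 0.06. The cause of these losses was not tested. Averaging pairs also leaves fewer samples in the fit.

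Leaving out each library in turn gave 3 to 5 calls in kit mutants at 2 dpi, 0 to 1 at 7 dpi, 1 to 3 in wild type at 7 dpi, 1 to 4 at 14 dpi, 1 to 4 between genotypes untouched, 5 to 8 at 2 dpi, and 0 to 2 for the responses at 7 dpi; a lone library was then assumed to vary like the other groups. The replicate block changed 1 call, per3 in kit mutants at 2 dpi (log2 0.37, adjusted p = 0.057). The deviations of same-numbered libraries correlated by -0.29 to 0.14 over 45 pairs of groups, 3 of them over 0.1, so the numbers were not read as pairing. Depth limits clocka (23 reads at the lowest). A planned motif search in promoters was not run.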
